A study of Homo sapiens with 36 samples.

Results

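Cells that leave G2 and divide switch on a shared set of genes for the kinases, cyclins and spindle proteins of mitosis. The 44 genes described here were chosen by name from the proteins of mitotic entry, the spindle checkpoint, anaphase and cytokinesis, and all 44 were found among the 60656 gene identifiers measured. RNA-Seq was run on 36 libraries from 3 human BRAF-V600E melanoma lines. They were 1205LuTR-NR2F1 (1205Lu below), WM793TR-NR2F1 (WM793) and A375TR-NR2F1 (A375). Each line carried a tetracycline repressor (TR) and a lentiviral NR2F1 cDNA that doxycycline (DOX, 100 ng/mL) turns on, NR2F1 being an orphan nuclear receptor linked to tumor dormancy. Each line was cultured in 4 ways, with 3 replicate libraries each: DMSO, DMSO + DOX, BRAFi + MEKi and BRAFi + MEKi + DOX. The DMSO or inhibitors were given for 72 hours, and DOX was given for 24 hours before that and during it. BRAFi was PLX4720 at 1 µM, which blocks the mutant BRAF kinase, and MEKi was PD0325901 at 35 nM, which blocks MEK, the next kinase of the same pathway. The cDNA was in all the cells compared, controls included, and no library came from cells given DOX without it, so DOX and NR2F1 cannot be told apart as the source of a change. 1205Lu was derived from WM793, so these lines share their origin. The study's methods state that replicates in culture came from separate experiments, which the labels of these libraries do not say. The comparisons ask how the inhibitors change the mitotic genes in each line and how much DOX changes them with and without the inhibitors.

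Entry into mitosis needs CDK1 bound to a B-type cyclin. WEE1 and PKMYT1 keep CDK1 off by phosphorylating it, CDC25 phosphatases remove that phosphate, and PLK1 and Aurora A help to tip the balance. The spindle checkpoint (TTK, BUB1, BUB1B, BUB3, MAD2L1) holds the anaphase-promoting complex (APC/C) back until chromosomes are attached, after which CDC20 directs it to securin and the cyclins. Most of these genes are transcribed in G2 and mitosis, through FOXM1 and the MuvB complex with MYBL2 (B-MYB), and are repressed by the DREAM complex in resting cells. In bulk RNA, fewer dividing cells and less RNA per dividing cell cannot be told apart.

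Summed normalized expression ran from 27027824 to 34621958 per library. NR2F1 itself was checked first. With DMSO it was at 6273, 2182 and 2327 in 1205Lu, at 917, 321 and 1511 in WM793 and at 497, 405 and 563 in A375. With DMSO + DOX it was at 20699, 9155 and 9270, 76313, 52746 and 65751 and 19001, 31632 and 17271. With BRAFi + MEKi it was at 4575, 2805 and 2966, 894, 689 and 3690 and 1327, 1223 and 1431, and with BRAFi + MEKi + DOX at 35187, 35345 and 30839, 30421, 50934 and 47577 and 23714, 35683 and 14995. In every line and with either treatment the DOX libraries did not overlap the libraries without DOX. 1205Lu held the most NR2F1 without DOX and its DMSO + DOX libraries lay above DMSO by only 1.93 on the log2 scale (adjusted p = 0.41), so its DMSO comparison rests on a smaller change. Of the melanoma markers, SOX10 lay between 5684 and 24854 and PRAME between 4810 and 8746 over all libraries, while MLANA averaged under 1 in every group. The 9 melanocytic markers summed to 22870 to 28940 in 1205Lu with DMSO, 58710 to 66690 with BRAFi + MEKi and 35290 to 82460 with BRAFi + MEKi + DOX. In the same order they summed to 29160 to 35720, 49810 to 58050 and 37710 to 48510 in WM793. In A375 they summed to 25350 to 28180, 36260 to 52300 and 27120 to 35570. The leukocyte marker gene CD3E averaged under 1 in every group, and PTPRC was at 91.0 in the first WM793 DMSO library and at 27, 22.3 and 6.54 in the A375 BRAFi + MEKi libraries. LYZ was at 128, 130 and 88.6 in A375 with DMSO, 57.5, 57.2 and 77.4 with DMSO + DOX, 95.6, 112 and 51.5 with BRAFi + MEKi and 33.5, 31.6 and 39.3 with BRAFi + MEKi + DOX. The 4 endothelial markers, mostly KDR and VWF, summed to 23.03 to 33.42 in 1205Lu with DMSO, 64.43 to 93.95 with BRAFi + MEKi and 130.1 to 226.7 with BRAFi + MEKi + DOX. In the same order they summed to 133.4 to 239.4, 341.6 to 528.9 and 370.7 to 890.3 in WM793 and to 127.5 to 201.5, 149.9 to 254.4 and 138.4 to 192.5 in A375. The endothelial gene CDH5 was listed at 0 in every 1205Lu library. The 4 keratinocyte markers, mostly KRT10, summed to between 251.7 and 975.1 over all libraries, with KRT1 averaging under 1 in every group. The part of these markers in the results was not tested.

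The members differed widely in level within a line. Per kb of annotated exon, UBE2C, the E2 enzyme of the APC/C, led in 1205Lu with DMSO at a mean of 5830, followed by CKS2, a small CDK-binding subunit, at 5200. CKS2 led in A375 (4510) and in WM793 (4050), ahead of UBE2C (3450 and 3410). The last rank was held by ESPL1, the separase gene, in 1205Lu (121) and by WEE1 in WM793 (110) and A375 (69.3). WEE1 took rank 42 of 44 in 1205Lu (134), and CDC25C took ranks 43, 43 and 42 in 1205Lu, WM793 and A375. CDC25B, which like them acts on CDK1 phosphorylation, ranked 21, 15 and 9 in that order. With DMSO, 18 members were higher in all 3 libraries of 1205Lu than in all 3 of WM793 and 1 was lower, where 18.1% of all genes were higher and 15.9% lower by that measure. Against A375, 19 members were higher in 1205Lu and 9 lower, where 21.2% and 29.0% of all genes were. In A375 against WM793, 18 were higher and 12 lower, where 29.7% and 20.2% of all genes were.

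BRAFi + MEKi lowered the whole set in 1205Lu and A375 and part of it in WM793. In 1205Lu all 44 members fell, with a median log2 fold change of -2.35, where 14.4% of the 22144 genes tested fell. In A375 all 44 fell, with a median of -3.70, where 19.0% of 24370 genes fell. In WM793, 16 of 44 fell and 1 rose, with a median of -0.21, where 16.9% of 22074 genes fell and 20.4% rose. With only the libraries compared in the fit, 9 members were called in WM793, and CDC25A, CDC25C, WEE1 and MYBL2 lost their call in 1205Lu. Calls here and below are an adjusted p under 0.05 in limma on log2(value + 1). As a share of the DMSO mean, the median member stood at 21.0% in 1205Lu, 86.4% in WM793 and 8.07% in A375 with BRAFi + MEKi. In WM793 the split depended on scaling: after rescaling the libraries to one total, 13 members fell and 6 rose, the median moved to -0.0012, and 10 members changed sign, none of them with a call.

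**Figure D1:**
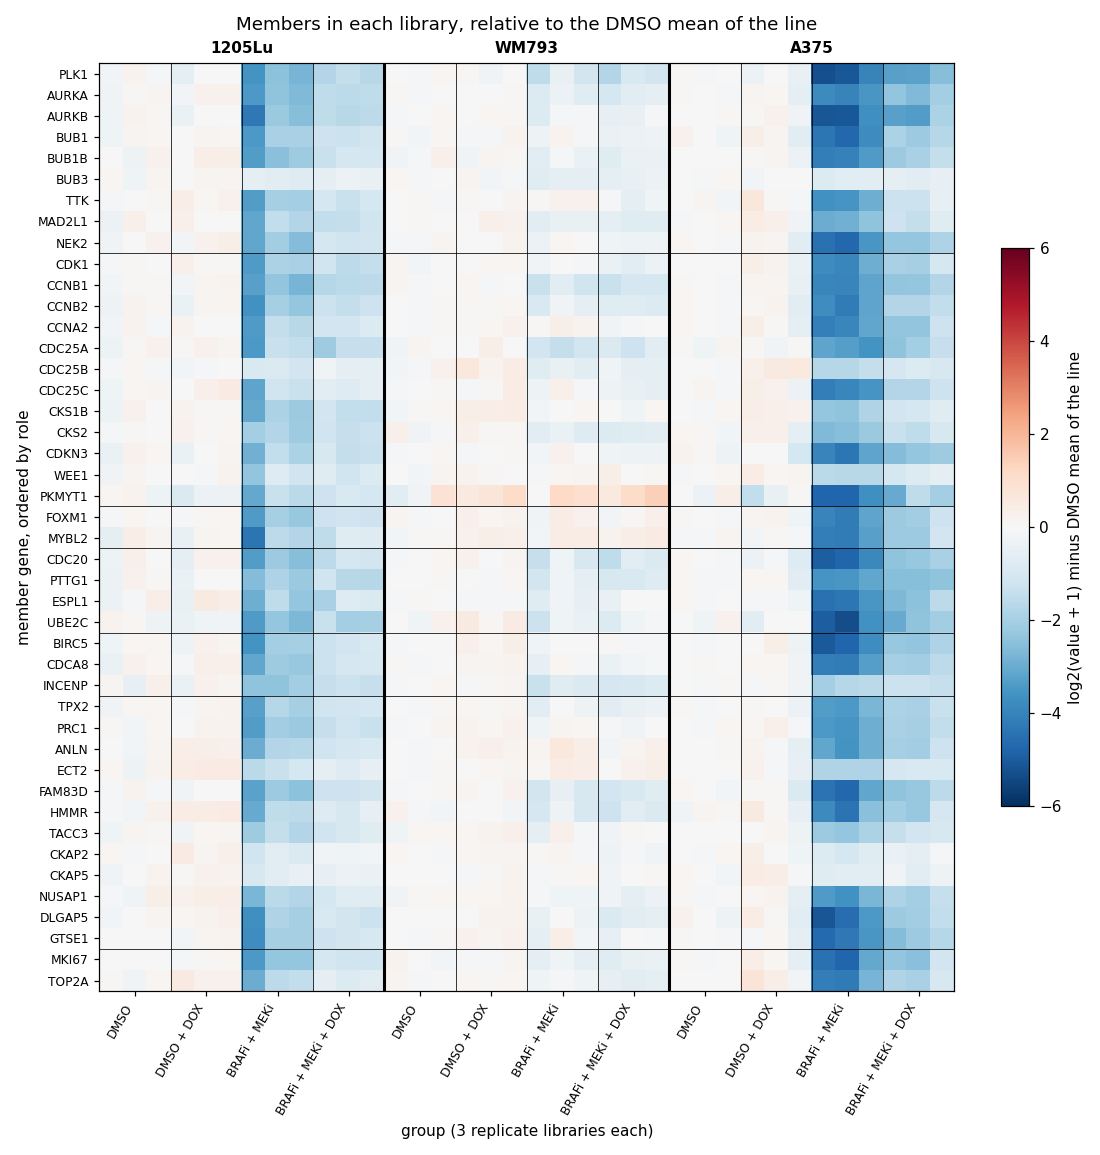
Each column is 1 library and each row 1 member, colored by log2(value + 1) minus the mean of that line's DMSO libraries, with thin lines between groups and between roles and thick lines between cell lines. The BRAFi + MEKi columns are blue for nearly all members in 1205Lu and A375 and pale in WM793, and the BRAFi + MEKi + DOX columns are paler than the BRAFi + MEKi columns in 1205Lu and A375.

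The libraries of 1 group were not alike in this set. Relative to DMSO, the median member stood at -3.19, -1.85 and -2.00 in the 3 BRAFi + MEKi libraries of 1205Lu and at -1.21, -1.17 and -1.10 in its BRAFi + MEKi + DOX libraries, so the first BRAFi + MEKi library lay well under the others. In A375 the figures were -3.86, -3.98 and -3.12 without DOX and -2.05, -2.06 and -1.38 with DOX, the third library being the highest in both groups. In WM793 they were -0.52, -0.03 and -0.20 without DOX and -0.44, -0.43 and -0.33 with DOX.

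The promoters of these genes are known for 2 short motifs. The part of these motifs in the changes of expression was not tested. The CHR (cell cycle genes homology region, letters TTTGAA or TTCGAA) is bound by MuvB, and CCAAT boxes are bound by NF-Y. RefSeq promoters (GRCh38.p14, 250 bases before to 50 after the start) were matched for 34 of the 44 members, those of AURKA, BUB3, TTK, WEE1, PKMYT1, FOXM1, UBE2C, BIRC5, TPX2 and FAM83D not being in the table used. On either strand, CHR letters were found in 23 of 34 promoters (67.6%), against 16.6% of 27305 promoters of the same length. CCAAT was found in 27 of 34 (79.4% against 35.7%), and both together in 21 of 34 (61.8% against 6.58%). E2F letters (TTTGGCGC or TTTCGCGC) were found in 3 of 34 (8.82% against 1.18%), in CDK1, CDC25A and NUSAP1. Over the 12691 promoters of genes tested in all 3 lines the shares were 11.8% for CHR, 36.4% for CCAAT and 1.97% for E2F letters. CHR and CCAAT letters overlapped by 1 base in the promoters of 2 members (CDCA8 and MKI67), 2 CCAAT matches on opposite strands overlapped in those of 2 others (HMMR and PTTG1), and no E2F match overlapped another motif. The 150 bases before the start are given for 7 members, 5′ to 3′ in the direction of the gene, with CHR and CCAAT letters, on either strand, in capitals. The first 4 hold both motifs, BUB1B holds CHR letters alone, CCNB1 holds CCAAT alone, and CDC25B holds neither in this stretch.
PLK1 (chr16:23678739-23678888, plus strand): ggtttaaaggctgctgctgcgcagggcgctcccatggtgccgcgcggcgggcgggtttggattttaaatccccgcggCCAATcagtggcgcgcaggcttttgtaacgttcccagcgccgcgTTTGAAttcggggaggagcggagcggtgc
CCNB2 (chr15:59104996-59105145, plus strand): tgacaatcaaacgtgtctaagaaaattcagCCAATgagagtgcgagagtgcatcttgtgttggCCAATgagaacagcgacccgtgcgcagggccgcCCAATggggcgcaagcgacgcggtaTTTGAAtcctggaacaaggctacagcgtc
CDC20 (chr1:43358831-43358980, plus strand): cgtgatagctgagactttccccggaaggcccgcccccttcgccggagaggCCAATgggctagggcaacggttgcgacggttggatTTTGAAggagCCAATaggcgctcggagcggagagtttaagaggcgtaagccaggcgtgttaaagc
CKS2 (chr9:89311045-89311194, plus strand): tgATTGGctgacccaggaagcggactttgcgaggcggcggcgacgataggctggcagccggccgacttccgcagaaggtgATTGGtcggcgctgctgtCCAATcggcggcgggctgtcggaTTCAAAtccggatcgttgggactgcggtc
BUB1B (chr15:40160919-40161068, plus strand): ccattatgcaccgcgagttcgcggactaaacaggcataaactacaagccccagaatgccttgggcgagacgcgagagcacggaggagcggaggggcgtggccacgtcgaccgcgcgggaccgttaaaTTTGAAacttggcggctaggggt
CCNB1 (chr5:69167000-69167149, plus strand): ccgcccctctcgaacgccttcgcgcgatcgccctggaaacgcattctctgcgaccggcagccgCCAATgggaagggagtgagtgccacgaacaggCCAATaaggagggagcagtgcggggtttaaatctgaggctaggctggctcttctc
CDC25B (chr20:3786801-3786950, plus strand): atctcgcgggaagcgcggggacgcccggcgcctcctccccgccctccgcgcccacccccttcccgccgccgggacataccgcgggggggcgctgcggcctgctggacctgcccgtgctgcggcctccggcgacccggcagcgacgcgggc
A match is a description of the letters, and its absence says only that they are not in the window. Only the first listed start of each gene was searched, so promoters at other starts were not covered.

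**Figure D2:**
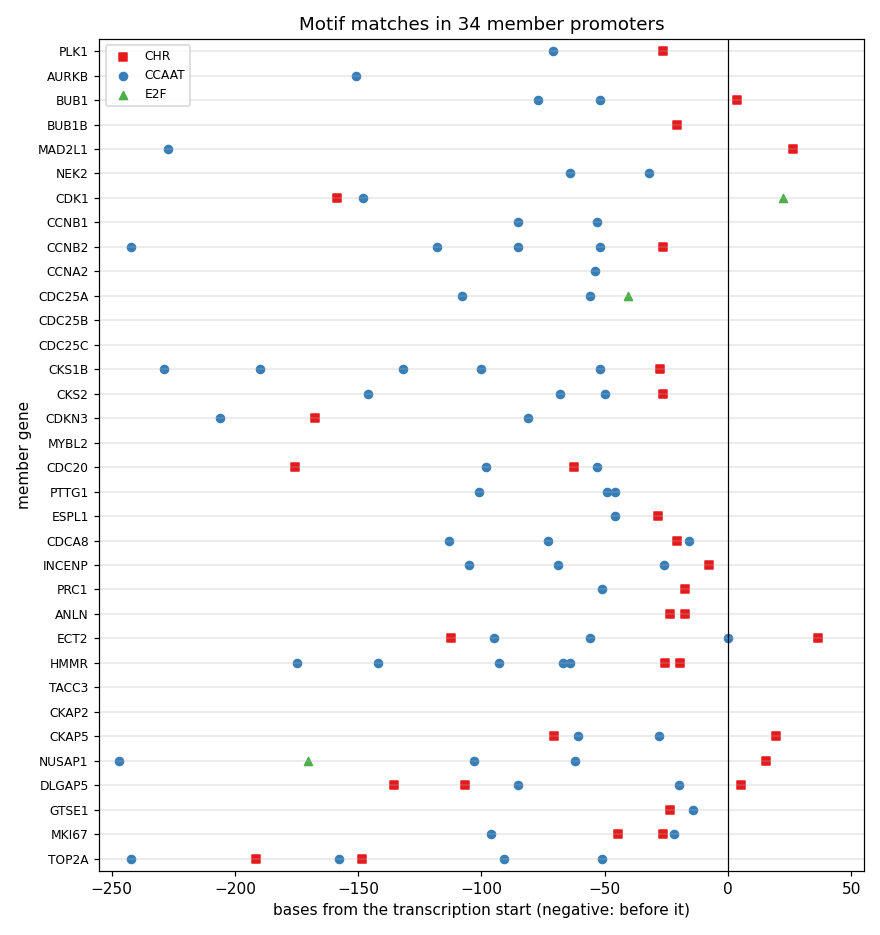
Each row is 1 of the 34 member promoters and each mark a match to CHR (squares), CCAAT (circles) or E2F (triangles) letters, placed by its distance in bases from the transcription start. Of the rows, 5 hold neither CHR nor CCAAT letters (CDC25B, CDC25C, MYBL2, TACC3 and CKAP2), and 19 of 34 (55.9%) hold 2 or more CCAAT matches, overlapping ones included, where 11.3% of all promoters do.

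Among the 9 checkpoint and mitotic kinase genes, all 9 fell with BRAFi + MEKi in 1205Lu and in A375 and 4 fell in WM793. With DOX added to the inhibitors, 4 of the 9 rose in 1205Lu, 8 in A375 and 0 in WM793. PLK1, the polo-like kinase of mitotic entry and spindle assembly, had the largest fall of any member in A375. PLK1 in 1205Lu was at 2969, 3874 and 3132 with DMSO, 271, 606 and 479 with BRAFi + MEKi and 977, 1208 and 1053 with BRAFi + MEKi + DOX. In A375, PLK1 was at 4537, 4067 and 4321 with DMSO, 111, 126 and 266 with BRAFi + MEKi and 443, 469 and 725 with BRAFi + MEKi + DOX. The inhibitors took PLK1 to 13.6% of its DMSO mean in 1205Lu and 3.90% in A375, the lowest share of any member in both lines. The log2 fold changes were -2.94 ± 0.25 and -4.78 ± 0.27 (SE, n = 3 libraries a group, limma adjusted p = 3e-06 and 2.5e-08). Adding DOX raised it by 1.32 (adjusted p = 0.047) and 1.77 (adjusted p = 0.0024). In WM793, PLK1 was at 2823, 2516 and 2949 with DMSO, 959, 2054 and 1295 with BRAFi + MEKi and 816, 1442 and 1305 with BRAFi + MEKi + DOX. It fell there too, by a log2 fold change of -1.01 (adjusted p = 0.0053), and DOX gave -0.24 (adjusted p = 0.88).

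AURKB, the kinase of the chromosomal passenger complex, had the largest fall of any member in 1205Lu, -3.02 ± 0.38. AURKB in 1205Lu was at 1693, 2360 and 2162 with DMSO, 105, 440 and 346 with BRAFi + MEKi and 713, 643 and 689 with BRAFi + MEKi + DOX. In A375, AURKB was at 2045, 2037 and 2171 with DMSO, 58.6, 61.3 and 161 with BRAFi + MEKi and 216, 206 and 566 with BRAFi + MEKi + DOX. DOX under the inhibitors gave 1.43 in 1205Lu (adjusted p = 0.15), although its 3 libraries with DOX all lay above the 3 without, and it was called with the replicate number as a block, that is, as a further term of the fit. In A375 it rose by 1.80 (adjusted p = 0.029). WM793 held AURKB at 1516, 1589 and 1791 with DMSO, 912, 1497 and 1544 with BRAFi + MEKi and 1160, 1211 and 1513 with BRAFi + MEKi + DOX, with no call in either comparison. BUB1B, the BUBR1 checkpoint kinase, was among the members that rose with DOX in 1205Lu and A375. BUB1B in 1205Lu was at 2999, 2382 and 3508 with DMSO, 281, 514 and 675 with BRAFi + MEKi and 1174, 1425 and 1397 with BRAFi + MEKi + DOX, a rise with DOX of 1.52 (adjusted p = 0.028). In A375, BUB1B was at 3372, 3464 and 3315 with DMSO, 192, 201 and 320 with BRAFi + MEKi and 754, 870 and 1258 with BRAFi + MEKi + DOX, a rise of 2.02 (adjusted p = 0.00015). In WM793, BUB1B was at 2654, 2893 and 3760 with DMSO, 1888, 2822 and 2295 with BRAFi + MEKi and 1829, 2364 and 2319 with BRAFi + MEKi + DOX. Its BRAFi + MEKi libraries there overlapped both the DMSO libraries and those with BRAFi + MEKi + DOX. BUB1, the other BUB kinase, and MAD2L1, which blocks CDC20, rose with DOX under the inhibitors in A375 by 2.33 and 1.60.

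BUB3, the checkpoint WD-repeat protein, fell in each line. BUB3 in 1205Lu was at 5836, 4419 and 5915 with DMSO, 3549, 3414 and 3168 with BRAFi + MEKi and 3714, 4175 and 3868 with BRAFi + MEKi + DOX. In WM793, BUB3 was at 5402, 4731 and 5001 with DMSO, 3054, 3438 and 3397 with BRAFi + MEKi and 3420, 3696 and 3906 with BRAFi + MEKi + DOX. In A375, BUB3 was at 6306, 5941 and 6767 with DMSO, 3604, 4041 and 4016 with BRAFi + MEKi and 4168, 4126 and 4503 with BRAFi + MEKi + DOX. It fell by -0.66, -0.61 and -0.71 in that order, and was the member with the smallest DOX change in 1205Lu (0.21) and A375 (0.13). AURKA, the Aurora A kinase, and NEK2, a centrosome kinase, rose with DOX under the inhibitors in 1205Lu by 1.31 and 1.47 and in A375 by 1.43 and 2.06. TTK (MPS1), the kinase that starts checkpoint signalling, rose in A375 by 2.35. In WM793 it was at 1132, 1175 and 1044 with DMSO, 1187, 1350 and 1353 with BRAFi + MEKi and 1041, 762 and 943 with BRAFi + MEKi + DOX, and its DOX change of -0.51 (adjusted p = 0.2) was the most negative of any member there.

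**Figure D3:**
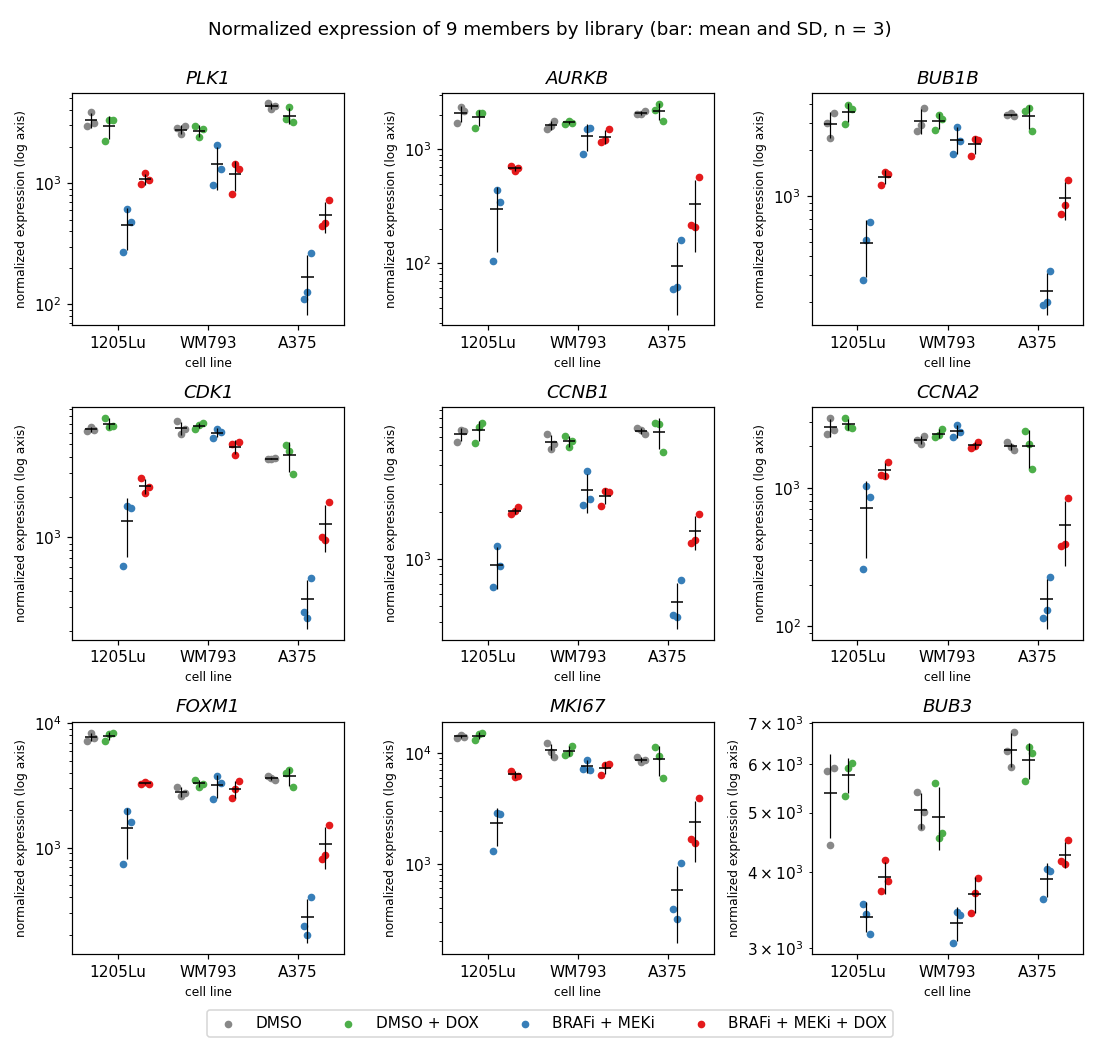
Normalized expression on a log axis for 9 members, with 1 point for each library, colored by group, and a bar for the mean and SD of the 3 libraries. The BRAFi + MEKi libraries of 1205Lu and A375 lie under all their DMSO libraries for every gene drawn, with the smallest gap for BUB3, while the WM793 groups lie closer together.

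Of the 12 genes for CDK1, the cyclins and their regulators, all 12 fell in 1205Lu and A375 with BRAFi + MEKi and 5 fell in WM793 (CCNB1, CCNB2, CDC25A, CDC25B and CKS2). With DOX under the inhibitors 2 rose in 1205Lu (CCNB1 and CKS2), all 12 in A375 and 0 in WM793. CDK1 in 1205Lu was at 6172, 6652 and 6359 with DMSO, 614, 1719 and 1655 with BRAFi + MEKi and 2755, 2156 and 2364 with BRAFi + MEKi + DOX. In A375, CDK1 was at 3867, 3817 and 3893 with DMSO, 279, 252 and 501 with BRAFi + MEKi and 1000, 960 and 1832 with BRAFi + MEKi + DOX. The DOX change was 1.00 in 1205Lu (adjusted p = 0.19), and A375 showed a rise of 1.88 (adjusted p = 0.0018). In WM793, CDK1 was at 7319, 5867 and 6385 with DMSO, 5543, 6461 and 6133 with BRAFi + MEKi and 4983, 4102 and 5162 with BRAFi + MEKi + DOX, and the inhibitors changed it by -0.11 (adjusted p = 0.5).

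CCNB1, the mitotic cyclin B1 whose promoter above holds CCAAT letters and no CHR letters, fell in all 3 lines. CCNB1 in 1205Lu was at 5613, 6656 and 6615 with DMSO, 663, 1211 and 903 with BRAFi + MEKi and 1944, 2038 and 2139 with BRAFi + MEKi + DOX. In WM793, CCNB1 was at 6269, 5075 and 5440 with DMSO, 2205, 3629 and 2425 with BRAFi + MEKi and 2192, 2732 and 2695 with BRAFi + MEKi + DOX. In A375, CCNB1 was at 6872, 6673 and 6304 with DMSO, 441, 426 and 737 with BRAFi + MEKi and 1279, 1320 and 1950 with BRAFi + MEKi + DOX. Its log2 falls were -2.80 ± 0.19, -1.05 ± 0.17 and -3.67 ± 0.22 in that order, and DOX raised it by 1.18 in 1205Lu and 1.52 in A375. CCNB2, cyclin B2, rose with DOX in A375 by 2.01. Its fall in WM793 was not called with only the libraries compared or after rescaling. CCNA2 encodes the S and G2 phase cyclin A2. In WM793, CCNA2 was at 2233, 2078 and 2367 with DMSO, 2333, 2871 and 2532 with BRAFi + MEKi and 1937, 2024 and 2154 with BRAFi + MEKi + DOX, an inhibitor change of 0.21 without a call. That change was called after rescaling and with array weights. The difference between CCNA2 and CCNB2 was not tested. CCNA2 in 1205Lu was at 2449, 3221 and 2605 with DMSO, 259, 1032 and 863 with BRAFi + MEKi and 1250, 1231 and 1547 with BRAFi + MEKi + DOX, and in A375 at 2146, 1969 and 1897 with DMSO, 114, 130 and 229 with BRAFi + MEKi and 381, 392 and 851 with BRAFi + MEKi + DOX, falls of -2.16 and -3.73.

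CDC25B, whose phosphatase starts CDK1 activation at the centrosome and whose promoter window holds neither motif, fell in each line. CDC25B in 1205Lu was at 3444, 3993 and 3515 with DMSO, 1910, 2003 and 1621 with BRAFi + MEKi and 3109, 2505 and 2479 with BRAFi + MEKi + DOX, in WM793 at 3966, 4273 and 5351 with DMSO, 2674, 3273 and 2915 with BRAFi + MEKi and 3716, 2982 and 3047 with BRAFi + MEKi + DOX, and in A375 at 6092, 6149 and 5792 with DMSO, 1843, 1855 and 2221 with BRAFi + MEKi and 3009, 3420 and 3111 with BRAFi + MEKi + DOX. The falls were -0.99, -0.61 and -1.61. CDC25A, which acts in G1 and S as well as at mitosis, had the largest fall in WM793 at -1.25 (adjusted p = 8.3e-05). CDC25A in WM793 ranged from 717 to 934 with DMSO, from 303 to 375.1 with BRAFi + MEKi and from 353 to 525 with BRAFi + MEKi + DOX, with no overlap between DMSO and either inhibitor group. CDC25C, the third of these phosphatases, fell in 1205Lu (-1.89) and A375 (-3.87) and gave -0.03 in WM793.

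WEE1 and PKMYT1, the kinases that oppose CDC25, both fell in 1205Lu and A375 and gave no call in WM793. The 1205Lu call of WEE1 was lost with only the libraries compared. WEE1 in 1205Lu was at 1069, 1393 and 1249 with DMSO, 236, 711 and 529 with BRAFi + MEKi and 745, 529 and 705 with BRAFi + MEKi + DOX, in WM793 at 1007, 896 and 1147 with DMSO, 976, 1100 and 1131 with BRAFi + MEKi and 1273, 998 and 1073 with BRAFi + MEKi + DOX, and in A375 at 614, 625 and 684 with DMSO, 208, 204 and 200 with BRAFi + MEKi and 304, 366 and 448 with BRAFi + MEKi + DOX. Its inhibitor changes were -1.46, 0.08 and -1.65. PKMYT1 in 1205Lu was at 711, 779 and 531 with DMSO, 79.3, 260 and 213 with BRAFi + MEKi and 284, 351 and 315 with BRAFi + MEKi + DOX, a fall of -2.01. In WM793, PKMYT1 was at 347, 460 and 966 with DMSO, 535, 1229 and 1096 with BRAFi + MEKi and 811, 1138 and 1424 with BRAFi + MEKi + DOX, the most positive inhibitor change of any member there, 0.74 (adjusted p = 0.13), and that change was called after rescaling and with array weights. In A375, PKMYT1 was at 644, 519 and 878 with DMSO, 23.9, 23.5 and 51.6 with BRAFi + MEKi and 80.1, 232 and 162 with BRAFi + MEKi + DOX, a fall of -4.39. CKS1B and CKS2 encode the small subunits that help CDKs dock on substrates. CKS2 in 1205Lu was at 3057, 3311 and 3233 with DMSO, 781, 934 and 735 with BRAFi + MEKi and 1399, 1239 and 1289 with BRAFi + MEKi + DOX. In A375, CKS2 was at 2986, 2884 and 2463 with DMSO, 447, 475 and 596 with BRAFi + MEKi and 1087, 962 and 1442 with BRAFi + MEKi + DOX. It fell by -1.98 and -2.46 and rose with DOX by 0.69 and 1.19. CKS1B in WM793 was at 3052, 3499 and 3618 with DMSO, 3032, 3408 and 3726 with BRAFi + MEKi and 3295, 2873 and 3639 with BRAFi + MEKi + DOX, an inhibitor change near 0 (-0.00 ± 0.12), where CKS2 fell by -0.61. That fall of CKS2 was not called with only the libraries compared, and the difference between CKS1B and CKS2 was not tested. CKS1B in 1205Lu was at 3750, 5401 and 4710 with DMSO, 550, 1218 and 1009 with BRAFi + MEKi and 2041, 1616 and 1631 with BRAFi + MEKi + DOX, and in A375 at 4470, 4065 and 4808 with DMSO, 881, 843 and 1252 with BRAFi + MEKi and 2003, 2115 and 2669 with BRAFi + MEKi + DOX. CDKN3, a phosphatase that acts on CDKs, fell by -2.09 in 1205Lu and -3.82 in A375.

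The mitotic transcription factor genes fell in 1205Lu and A375 and gave no call in WM793. After rescaling, MYBL2 was called higher in WM793. With only the libraries compared, its fall in 1205Lu was not called. FOXM1 in 1205Lu was at 7228, 8369 and 7670 with DMSO, 742, 1976 and 1613 with BRAFi + MEKi and 3259, 3350 and 3254 with BRAFi + MEKi + DOX. In WM793, FOXM1 was at 3095, 2610 and 2736 with DMSO, 2453, 3779 and 3345 with BRAFi + MEKi and 2502, 2983 and 3471 with BRAFi + MEKi + DOX. In A375, FOXM1 was at 3790, 3652 and 3484 with DMSO, 234, 199 and 401 with BRAFi + MEKi and 807, 866 and 1522 with BRAFi + MEKi + DOX. Its inhibitor changes were -2.54, 0.16 and -3.77, and DOX gave 1.30 in 1205Lu (adjusted p = 0.052, called with the replicate block) and a rise of 1.94 in A375. MYBL2 in 1205Lu was at 4026, 7971 and 6609 with DMSO, 282, 2005 and 1743 with BRAFi + MEKi and 2047, 3560 and 3478 with BRAFi + MEKi + DOX, the largest DOX change of any member there at 1.56, with an adjusted p of 0.33. Each library with DOX lay above the same-numbered one without it, and MYBL2 was called with the replicate block. In A375, MYBL2 was at 2223, 2237 and 2680 with DMSO, 132, 126 and 243 with BRAFi + MEKi and 530, 515 and 1077 with BRAFi + MEKi + DOX, a rise with DOX of 2.05. In WM793, MYBL2 was at 5440, 6542 and 6571 with DMSO, 5436, 8476 and 8502 with BRAFi + MEKi and 7151, 8073 and 8779 with BRAFi + MEKi + DOX.

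The 4 anaphase genes, CDC20, PTTG1 (securin), ESPL1 (separase) and UBE2C, all fell in 1205Lu and A375, and 3 of the 4 fell in WM793. Those 3, CDC20, PTTG1 and ESPL1, all lost their WM793 call with only the libraries compared. ESPL1 also lost it after rescaling. CDC20 in 1205Lu was at 2995, 4512 and 3572 with DMSO, 361, 797 and 624 with BRAFi + MEKi and 1219, 1726 and 1675 with BRAFi + MEKi + DOX. In WM793, CDC20 was at 2776, 3000 and 3318 with DMSO, 1170, 2531 and 1542 with BRAFi + MEKi and 1064, 1974 and 1667 with BRAFi + MEKi + DOX. In A375, CDC20 was at 6893, 6476 and 5869 with DMSO, 204, 238 and 436 with BRAFi + MEKi and 1193, 1330 and 1660 with BRAFi + MEKi + DOX. The inhibitor changes were -2.69, -0.87 and -4.53, and with DOX CDC20 rose in A375 by 2.31, against 1.43 (adjusted p = 0.057, called with the replicate block) in 1205Lu. UBE2C in A375 was at 4385, 3635 and 5293 with DMSO, 144, 109 and 350 with BRAFi + MEKi and 546, 825 and 1022 with BRAFi + MEKi + DOX, a fall of -4.63. UBE2C in 1205Lu was at 8549, 7902 and 6034 with DMSO, 706, 1463 and 1132 with BRAFi + MEKi and 2954, 1821 and 1852 with BRAFi + MEKi + DOX, and in WM793 at 4291, 3609 and 5249 with DMSO, 1765, 3587 and 3273 with BRAFi + MEKi and 2443, 3601 and 4044 with BRAFi + MEKi + DOX. With DOX under the inhibitors, PTTG1, ESPL1 and UBE2C rose in A375 by 0.87, 1.86 and 2.13.

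Of the chromosomal passenger genes BIRC5 (survivin), CDCA8 (borealin) and INCENP, all 3 fell in 1205Lu and A375 and INCENP alone in WM793 (-0.97). BIRC5 in 1205Lu was at 2975, 3942 and 3940 with DMSO, 297, 871 and 904 with BRAFi + MEKi and 1482, 1625 and 1897 with BRAFi + MEKi + DOX. In WM793, BIRC5 was at 1096, 1166 and 1181 with DMSO, 953, 1134 and 1152 with BRAFi + MEKi and 1194, 1100 and 1096 with BRAFi + MEKi + DOX. In A375, BIRC5 was at 2829, 2667 and 2786 with DMSO, 83.2, 102 and 208 with BRAFi + MEKi and 570, 541 and 776 with BRAFi + MEKi + DOX. With DOX, BIRC5 rose in A375 by 2.35 and CDCA8 rose in 1205Lu (1.43) and A375 (2.01). INCENP, the scaffold of the complex, gave 0.48 in A375 (adjusted p = 0.077).

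All 12 spindle, microtubule and cytokinesis genes fell in 1205Lu and A375. In WM793, 2 of the 12 fell (FAM83D and HMMR, 16.7% against 16.9% of all genes) and ANLN rose (8.33% against 20.4%). HMMR and ANLN lost these WM793 calls with only the libraries compared. TPX2, which activates Aurora A on spindle microtubules, was at 10278, 13010 and 13075 with DMSO, 1248, 3680 and 3052 with BRAFi + MEKi and 5299, 5501 and 5810 with BRAFi + MEKi + DOX in 1205Lu. In A375, TPX2 was at 7638, 6859 and 7399 with DMSO, 706, 662 and 1078 with BRAFi + MEKi and 1947, 1905 and 2916 with BRAFi + MEKi + DOX, a rise with DOX of 1.47. In WM793, TPX2 was at 10149, 9903 and 10833 with DMSO, 6609, 10458 and 8244 with BRAFi + MEKi and 6405, 7578 and 7996 with BRAFi + MEKi + DOX, changes of -0.31 with inhibitors and -0.18 with DOX. CKAP5 (ch-TOG), a microtubule polymerase, had the smallest fall in A375, where it stayed at 62.9% of DMSO. CKAP5 in 1205Lu was at 8987, 10437 and 11858 with DMSO, 5266, 6456 and 7542 with BRAFi + MEKi and 7443, 8037 and 7793 with BRAFi + MEKi + DOX, in WM793 at 9283, 8797 and 9018 with DMSO, 8667, 9551 and 9849 with BRAFi + MEKi and 7774, 8884 and 9374 with BRAFi + MEKi + DOX, and in A375 at 10918, 10044 and 8872 with DMSO, 6059, 6256 and 6459 with BRAFi + MEKi and 8480, 6369 and 7985 with BRAFi + MEKi + DOX. Its DOX changes were 0.29, -0.11 and 0.27, none of them called. ANLN, the anillin of the contractile ring, was at 15188, 14225 and 15322 with DMSO, 16844, 23229 and 19553 with BRAFi + MEKi and 13509, 16551 and 18346 with BRAFi + MEKi + DOX in WM793, and the inhibitors raised it by 0.40 (adjusted p = 0.027). DLGAP5 (HURP), which stabilises kinetochore fibers, had the largest DOX rise of any member in A375, 2.48 (adjusted p = 0.002). DLGAP5 in A375 was at 2701, 2267 and 1818 with DMSO, 61.6, 93.2 and 202 with BRAFi + MEKi and 488, 531 and 797 with BRAFi + MEKi + DOX. FAM83D, a spindle targeting protein, rose with DOX in 1205Lu (1.42) and A375 (1.99). PRC1, NUSAP1, GTSE1, ECT2 and TACC3, of the midzone, spindle and cleavage furrow, rose with DOX in A375 by 1.50, 1.49, 2.01, 0.87 and 0.98. HMMR and CKAP2 gave 1.80 and 0.54 there, neither called.

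MKI67, the antigen that marks cycling cells, and TOP2A, the topoisomerase that untangles sister chromatids, both fell with BRAFi + MEKi in 1205Lu and A375. In WM793, MKI67 fell and TOP2A had no call. MKI67 lost that WM793 call with only the libraries compared and after rescaling. MKI67 in 1205Lu was at 13808, 14503 and 14047 with DMSO, 1302, 2851 and 2828 with BRAFi + MEKi and 6887, 6146 and 6208 with BRAFi + MEKi + DOX. In WM793, MKI67 was at 12218, 10290 and 9295 with DMSO, 7112, 8717 and 6999 with BRAFi + MEKi and 6342, 7828 and 8046 with BRAFi + MEKi + DOX. In A375, MKI67 was at 9183, 8383 and 8628 with DMSO, 393, 318 and 1021 with BRAFi + MEKi and 1674, 1553 and 3939 with BRAFi + MEKi + DOX. DOX raised MKI67 by 1.55 in 1205Lu (adjusted p = 0.016) and by 2.10 in A375 (adjusted p = 0.013), and its 3 WM793 inhibitor libraries overlapped those with DOX. TOP2A in 1205Lu was at 18241, 14920 and 19023 with DMSO, 2202, 5896 and 6172 with BRAFi + MEKi and 11366, 9744 and 11081 with BRAFi + MEKi + DOX, in WM793 at 19436, 15772 and 16688 with DMSO, 14509, 15787 and 14626 with BRAFi + MEKi and 12415, 10689 and 11361 with BRAFi + MEKi + DOX, and in A375 at 18333, 18385 and 17856 with DMSO, 1011, 973 and 2604 with BRAFi + MEKi and 5168, 4749 and 9287 with BRAFi + MEKi + DOX. TOP2A rose with DOX in A375 by 2.16. In 1205Lu, TOP2A had no call with DOX under the inhibitors, but was called with the replicate block and with array weights.

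**Figure D4:**
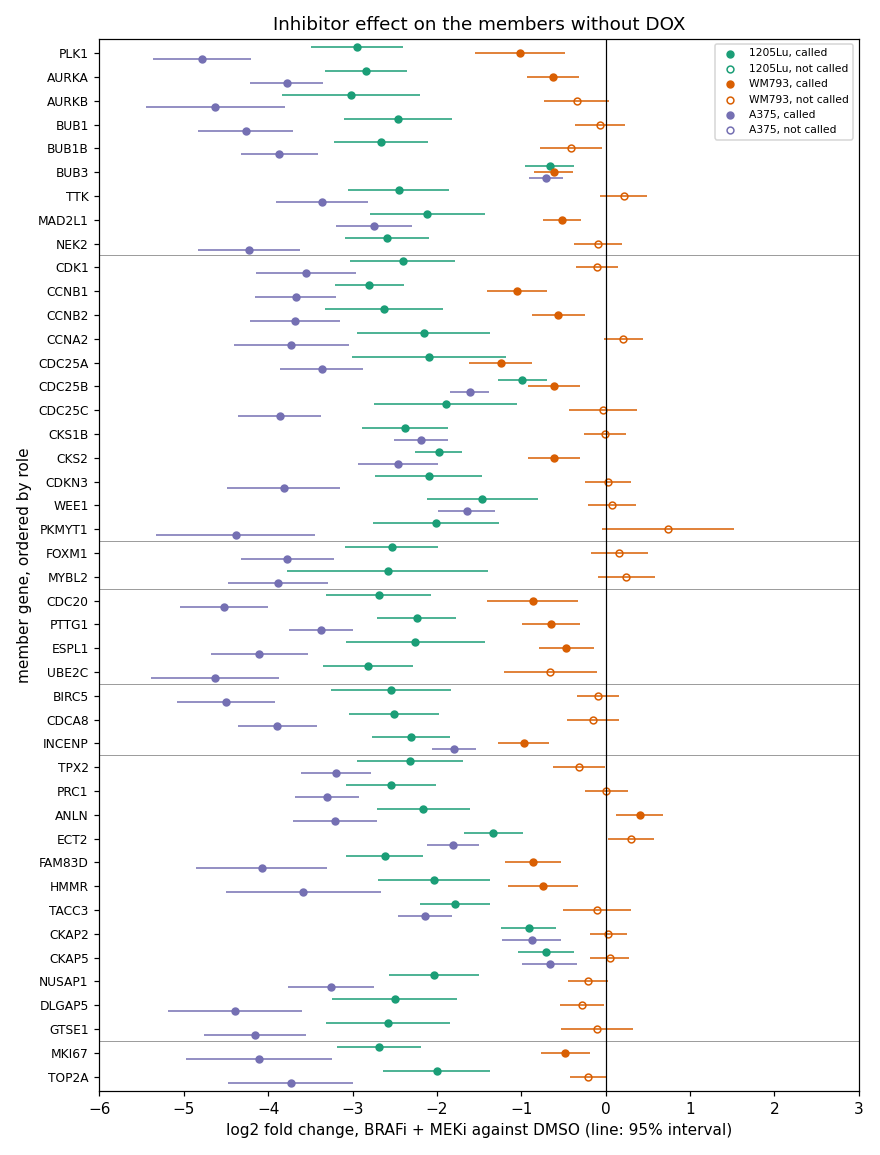
Log2 fold change of BRAFi + MEKi against DMSO for each member in each line, with the 95% interval, filled where the adjusted p was under 0.05. All 44 points of 1205Lu (median -2.35) and A375 (median -3.70) are filled and under 0, while those of WM793 (median -0.21) scatter about 0.

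In all, DOX under BRAFi + MEKi raised 39 of 44 members in A375, 9 in 1205Lu and 0 in WM793. In A375 the median log2 change was 1.79 and 1.37% of all genes rose. In 1205Lu the median was 1.2 and 0.199% of all genes rose, and 44 of 44 members had a positive change, 40 of them with an unadjusted p under 0.05. All 9 members that rose in 1205Lu were among the 39 in A375. In WM793 the median was -0.11, 9 members had an unadjusted p under 0.05, and 0.0951% of all genes rose and 0.109% fell. The 3 libraries with DOX lay above all 3 without it for 39 members in 1205Lu (6.06% of all genes), for 43 in A375 (8.28% of all genes) and for 0 in WM793, where 8 members lay below (7.04% of all genes). With BRAFi + MEKi + DOX the median member was at 45.3% of the DMSO mean in 1205Lu, 76.9% in WM793 and 29.1% in A375. Above the DMSO mean lay 0 members in any of these libraries of 1205Lu or A375, while in WM793 4, 6 and 9 members did, PKMYT1 being the highest at 190% of DMSO.

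These counts moved with the libraries and the terms of the fit. With only the 6 libraries compared in the fit, 0 members were called in 1205Lu and 1 in A375 (ECT2). With the replicate number as a block, 29 members rose in 1205Lu. Deviations of same-numbered libraries there correlated at 0.27, 0.11 and 0.11, and those of different numbers at up to 0.1. Leaving out 1 library gave 3 calls in 1205Lu without BRAFi + MEKi replicate 1, 2 without replicate 3, and 0 without BRAFi + MEKi + DOX replicate 2 or without replicate 3. In A375 the range was 29 to 41.

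**Figure D5:**
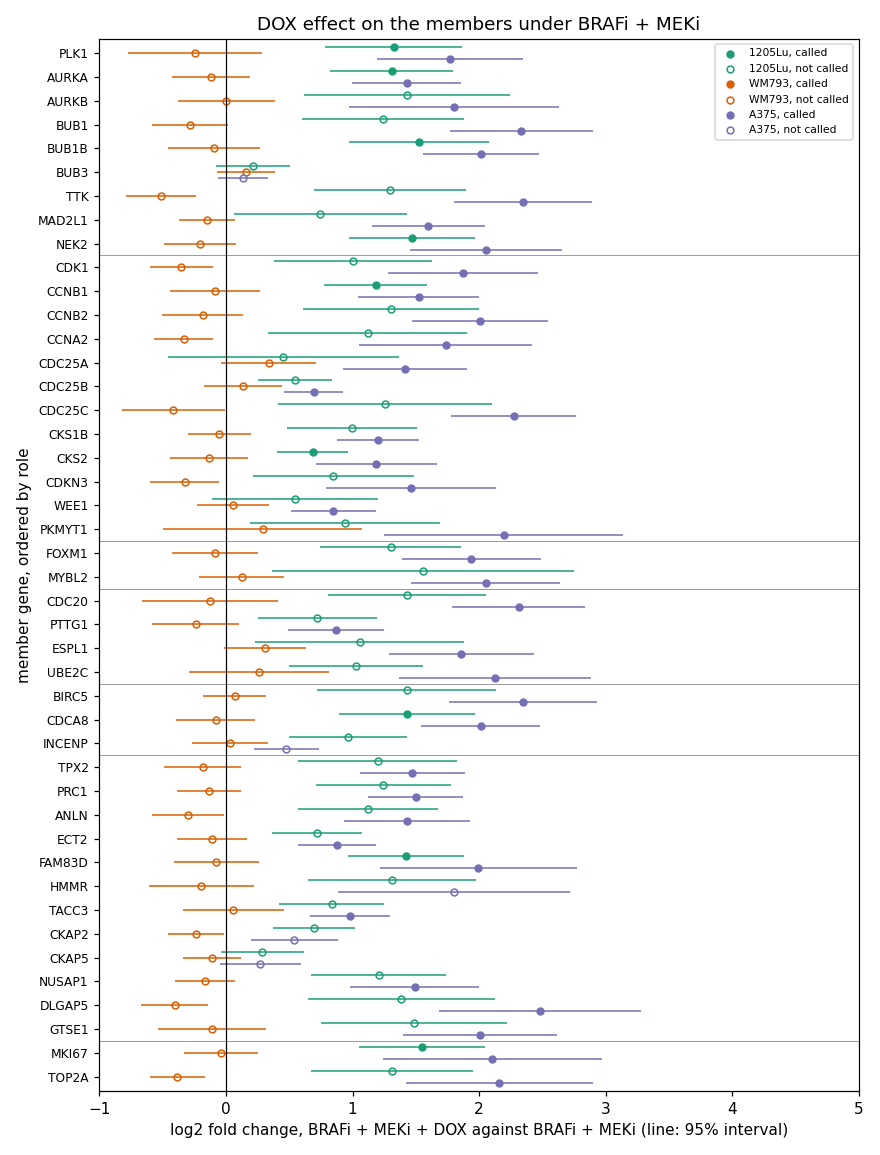
Log2 fold change of BRAFi + MEKi + DOX against BRAFi + MEKi for each member in each line, with the 95% interval, filled where the adjusted p was under 0.05. The A375 points lie furthest to the right (median 1.79), the 1205Lu points next (median 1.2, 9 filled), and the WM793 points about 0 (median -0.11, 0 filled).

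Without the inhibitors, DOX gave no calls among the members. The medians of DMSO + DOX against DMSO were 0.09 in 1205Lu, 0.12 in WM793 and -0.04 in A375. An unadjusted p under 0.05 was found for 1, 4 and 1 members. Of all genes 0.00903%, 0.512% and 0.0492% were called. PLK1 was at 2214, 3322 and 3341 with DMSO + DOX in 1205Lu, at 2938, 2386 and 2795 in WM793 and at 3385, 4214 and 3187 in A375. In the same order MKI67 was at 13187, 14903 and 15091, 9618, 9965 and 11622 and 11347, 9444 and 5995. In A375 the third DMSO + DOX library lay lowest for CDK1 (4902, 4409 and 2947), CCNA2 (2572, 2075 and 1368) and TOP2A (30911, 23962 and 16099), and its median member stood at -0.33 relative to DMSO. The DOX effect under the inhibitors minus that under DMSO is the direct test of whether the inhibitors changed it. In A375 that difference was positive and called for 19 members, where 0.439% of all genes were called higher, with CDC20 (2.71) and BUB1 (2.37) the largest. Of the 12 libraries of A375, each moved that count by over 1.5 times when it was left out: 1 call was left without DMSO replicate 1 or without replicate 2, 32 were made without BRAFi + MEKi replicate 3, and the others gave 2 to 12. In 1205Lu all 44 differences were above 0 (median 1.04, 30 with an unadjusted p under 0.05), yet 0 members and 0 of all genes were called. In WM793, 41 of 44 differences were below 0, 9 had an unadjusted p under 0.05, and 0 of them and 0 of all genes were called.

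With NR2F1 induced, BRAFi + MEKi still lowered most of the set. BRAFi + MEKi + DOX against DMSO + DOX gave 40 falls in 1205Lu (median -1.26, where 13.2% of all genes fell), 43 in A375 (median -1.82, 14.8%) and 28 in WM793 (median -0.47, 15.1%). These comparisons share no library with those of BRAFi + MEKi against DMSO. In WM793, 15 of the 16 members that fell without DOX also fell with it and 13 fell with DOX alone, a difference that was not called for any member in the test above. PLK1 (-1.22), CCNB1 (-1.17) and CDC20 (-1.15) led there, and TOP2A fell by -0.70 after a change of -0.20 without DOX. After rescaling to one total, 18 members fell in WM793.

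The lines were compared directly in a fit of all 36 libraries. The inhibitor effect was lower in 1205Lu than in WM793 for 40 members (7.94% of all genes), with a median difference of -2.04, and the exceptions were BUB3, CDC25A, CDC25B and HMMR. With only the libraries compared, MAD2L1, CDC25C, WEE1, PKMYT1, MYBL2 and TOP2A also lost this call. The inhibitor effect was lower in A375 than in WM793 for 43 members (12.7% of all genes), with a median of -3.45, BUB3 being the exception. For FOXM1 the differences were -2.70 ± 0.36 and -3.94 ± 0.36, and for CDK1 -2.30 ± 0.38 and -3.45 ± 0.38. The fall was smaller in 1205Lu than in A375 for 28 members (8.08% of all genes, median difference 1.23), PKMYT1 (2.38) and CDC25C (1.97) leading. That count was 7 with only the libraries compared, 36 without 1205Lu BRAFi + MEKi replicate 1, 16 without 1205Lu BRAFi + MEKi replicate 2, 17 without its replicate 3, 17 without A375 BRAFi + MEKi replicate 1 and 18 without its replicate 2. With BRAFi + MEKi, 43 members lay lower in all 3 libraries of 1205Lu than in all 3 of WM793, where 17.6% of all genes did, and 43 lower in A375 than in WM793, where 23.7% did.

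The DOX effect under the inhibitors differed most between A375 and WM793, being higher in A375 for 30 members (0.706% of all genes, median difference 1.83), a count of 9 with only the libraries compared. TTK (2.86 ± 0.35) and DLGAP5 (2.89 ± 0.48) had the largest differences. It was higher in 1205Lu than in WM793 for 6 members (AURKA, BUB1B, TTK, NEK2, CDCA8 and PRC1, where 0.0822% of all genes were called higher), with TTK again the largest at 1.81 (adjusted p = 0.031), and 37 members had an unadjusted p under 0.05. These 6 calls ran from 0 to 18 when 1 library was left out, were 0 with only the libraries compared and 14 with the replicate block. Between 1205Lu and A375, 0 members were called, where 0.179% of all genes were, and 40 of 44 differences were below 0, 10 with an unadjusted p under 0.05. Without 1205Lu BRAFi + MEKi replicate 1, the low library, 7 members were called lower in 1205Lu than in A375.

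A further 100 mitotic genes were counted in the same way. With BRAFi + MEKi, 68 fell and 5 rose in 1205Lu, 68 fell and 11 rose in A375, and 28 fell and 15 rose in WM793. Of all genes 14.4%, 19.0% and 16.9% fell and 16.5%, 20.5% and 20.4% rose in 1205Lu, A375 and WM793. The 14 mitotic kinesins, motors of spindle and midzone, all fell in 1205Lu and A375 and in WM793 7 fell and 1 rose, KIF2C falling by -2.82 in 1205Lu and KIF18B by -4.24 in A375. Of 27 kinetochore genes, 25 fell in 1205Lu and A375, while 3 fell and 7 rose in WM793, with SKA1 up by 1.03. Of 18 condensin and cohesin genes, 13 fell and 1 rose in 1205Lu, 12 fell and 1 rose in A375, and 7 fell and 0 rose in WM793. Of 17 APC/C genes, 6 fell and 3 rose in 1205Lu, 7 fell and 6 rose in A375, and 4 fell and 1 rose in WM793, with UBE2S the largest fall in each (-2.43, -2.26 and -1.02). Of 12 mitotic phosphatase genes, 5 fell and 1 rose in 1205Lu, 6 fell and 2 rose in A375, and 4 fell and 2 rose in WM793. Of 12 DREAM and MuvB subunit genes, 5 fell and 0 rose in 1205Lu, 4 fell and 2 rose in A375, and 3 fell and 4 rose in WM793. Among those that fell were TFDP1 in 1205Lu (-1.03), LIN9 in A375 (-0.87) and E2F4 in WM793 (-0.83). With DOX under the inhibitors, 44 of the 100 rose in A375, 3 in 1205Lu and 0 in WM793, where 11 had an unadjusted p under 0.05. Of all genes 1.37%, 0.199% and 0.0951% rose in that order. In A375 these were all 14 kinesins, 21 of 27 kinetochore genes, 7 of 18 condensin and cohesin genes and 2 of 12 DREAM and MuvB genes, KIF15 (2.62), SGO1 (2.33), CDCA5 (2.01) and LIN9 (0.97) leading. Of the 17 APC/C genes and 12 phosphatase genes 0 were called there, and 3 of each had an unadjusted p under 0.05.

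Of the 44 members, 12 share exon sequence with another annotated gene, among them PLK1 with ERN2, BUB1B with PAK6, CCNA2 with EXOSC9, FOXM1 with ITFG2 and TACC3 with TMEM129. The sources used here do not give the strand setting of the counting, so reads of a member and of such a partner may not have been told apart.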

How the data were processed

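RNA was isolated with an RNeasy kit and libraries were made with TruSeq RNA Library Prep Kit v2 in 3 melanoma lines, as the labels and the study's methods state. Alignment by the authors used STAR 2.7.0 (GRCh38, GENCODE 35), gene quantification RSEM 1.2.28 and normalization DESeq2 1.28.1. The deposited values are a normalized signal per gene, neither counts nor per length: within a tolerance of 0.01, 3.6% to 35.1% of values came out as whole reads, so no count test was run and depth beyond the totals is unknown. Gene symbols came from GENCODE 44 (60401 of 60656 identifiers matched without version). The labels give the 24 hours before treatment as with or without DOX, while the study's methods describe DOX then for all cells, so whether the groups without DOX saw it in that time cannot be told.

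Per line, log2(value + 1) of the 12 libraries was fitted with limma 3.58.1 (R 4.3.3, trend, 8 residual degrees of freedom), testing genes with a group mean of at least 1 (22144, 22074 and 24370), with Benjamini-Hochberg adjustment over all of them and a threshold of 0.05. Line differences were fitted over all 36 libraries and 26779 genes. Fold changes are on the log2(value + 1) scale, which understates changes of low genes. In a simulation with 100 genes changed by 1 on the log2 scale and 100 by 2, the fit recovered 61 and 88 in 1205Lu, 57 and 94 in WM793 and 65 and 88 in A375. False calls were 6, 6 and 5 in that order. The changed genes were drawn from those above a set mean level, and the noise was independent between genes. The simulation therefore does not give the recovery for members that shift together in a library. Promoter and plot steps used Python 3.11.15.

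The members and gene lists were chosen with earlier results of these data known. Values in every library are given for members picked by role and for those with the largest and smallest change in a comparison, genes of the other lists by counts with the largest changes among those called, and promoters for 7 members. Alternatives were a pseudocount of 0.1, no filter, only the libraries compared, the replicate block, rescaling, array weights and leaving out 1 library. Same-numbered libraries were compared over all genes tested: every pair's correlation of deviations was above 0.1 for BRAFi + MEKi + DOX against BRAFi + MEKi in 1205Lu (0.27, 0.11 and 0.11) and WM793 (0.25, 0.18 and 0.11), where the numbers therefore pair the libraries, and not in the other comparisons.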

Additional observations from a re-analysis of the deposited data

Results flagged for a closer look

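The following differences between lines or treatments were found by a test of the difference itself. In A375 the DOX effect under BRAFi + MEKi differed from that under DMSO for 19 members (0.439% of all genes were called higher), a count that ran from 1 to 32 when 1 library was left out. The BRAFi + MEKi effect differed between 1205Lu and WM793 for 40 members (7.94% of all genes), between 1205Lu and A375 for 28 (8.08%) and between A375 and WM793 for 43 (12.7%). The count of 28 ran from 16 to 36 when 1 library was left out. The DOX effect under BRAFi + MEKi differed between 1205Lu and WM793 for 6 members (0.0822% of all genes), running from 0 to 18 when 1 library was left out, and between A375 and WM793 for 30 (0.706%), running from 23 to 35. The first BRAFi + MEKi library of 1205Lu had the lowest median of the members in that line. Without it, the inhibitor difference was called for 40 members between 1205Lu and WM793 and for 36 between 1205Lu and A375, and the DOX difference for 1 member between 1205Lu and WM793 and for 7 between 1205Lu and A375.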

How the results depend on the processing

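Over 21 comparisons, 256 of 303 recomputed counts of called members stayed within 1.5 times the first count, and no called member changed sign. With only the libraries compared, calls went from 9 to 0 (1205Lu) and from 39 to 1 (A375) for DOX under BRAFi + MEKi, from 17 to 9 for BRAFi + MEKi in WM793, from 6 to 0 and from 30 to 9 for the DOX effect of 1205Lu and of A375 against WM793, and from 28 to 7 for the inhibitor effect of 1205Lu against A375. The replicate number was used as a block: it moved DOX under BRAFi + MEKi in 1205Lu from 9 to 29 and the DOX difference of 1205Lu and WM793 from 6 to 14, and moved no other count by over 1.5 times. Array weights gave 32 for DOX under BRAFi + MEKi in 1205Lu, 2 in WM793 (TTK and TOP2A), 33 for the A375 difference of DOX effects, 1 for that in WM793 (TOP2A), 30 for 1205Lu against WM793 and 7 for 1205Lu against A375. Without the filter on low values the DOX difference of 1205Lu and WM793 was 3. Rescaling gave 18 falls for BRAFi + MEKi + DOX against DMSO + DOX in WM793. Rescaling moved the median of all genes by 0.18 and 0.15 in the 2 WM793 inhibitor comparisons and by 0.14 and 0.12 in those of A375, and the share of rises among all calls went from 54.8% to 69.1%, 52.6% to 67.0%, 52.0% to 62.4% and 52.2% to 64.0% in the same order. It went from 37.2% to 48.0% for DMSO + DOX in WM793.

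Leaving out 1 library in turn gave 0 to 13 calls for DOX under BRAFi + MEKi in 1205Lu, 29 to 41 in A375, 1 to 32 for the difference of DOX effects in A375, 0 to 18 for the DOX difference of 1205Lu and WM793, 0 to 7 for that of 1205Lu and A375, 23 to 35 for that of A375 and WM793, 16 to 36 for the inhibitor difference of 1205Lu and A375, 13 to 20 for BRAFi + MEKi in WM793 and 21 to 25 with DOX. The A375 difference of DOX effects was 4 without DMSO replicate 3, 12, 7 and 6 without DMSO + DOX replicates 1, 2 and 3, 2 and 5 without BRAFi + MEKi replicates 1 and 2, and 7, 12 and 5 without BRAFi + MEKi + DOX replicates 1, 2 and 3. The DOX difference of 1205Lu and WM793 was 1 and 18 without 1205Lu BRAFi + MEKi replicates 1 and 2, 11, 0 and 0 without its BRAFi + MEKi + DOX replicates 1, 2 and 3, 0 and 0 without WM793 BRAFi + MEKi replicates 2 and 3, and 2, 0 and 1 without its BRAFi + MEKi + DOX replicates 1, 2 and 3. BRAFi + MEKi against DMSO stayed at 44 in 1205Lu and A375 whichever library was left out. The share of promoters with CHR letters among all genes was 11.8% over genes tested in all 3 lines. Depth per gene is unknown, so the precision of the lowest members rests on the spread of 3 libraries. The cause of these moves was not tested.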
